A study of Petromyzon marinus and Lampetra planeri with 28 samples.

Results

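A rule for less RNA at T20 than at both T18 and T21 chose 76 loci, 75 of them with reads at T18, in dissected dorsal neural tubes (DNTs) of the sea lamprey, Petromyzon marinus. They were chosen on the measured values. In the authors' normalised counts, which are fragment counts divided by a size factor for each library, the mean of the 6 T18 and T21 values had to be at least 50. The higher T20 value also had to be at most 66.7% of the lowest T18 or T21 value. Of 56319 loci with normalised counts, 14418 reached the mean, and the 76 were 0.527% of these. The mirrored rule, in which both T20 libraries lie above all others by the same factor, chose 100 loci.

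The RNA-seq data comprised 3 libraries at Tahara stage T18, 2 at T20 and 3 at T21. Each T18 library pooled DNTs of 30 embryos and each T20 or T21 library those of 35, with no treatment at any stage. Libraries of one stage are independent pools. Peaks of open chromatin came from ATAC-seq of T20 and T21 DNTs and T23 heads of the sea lamprey and of the brook lamprey, Lampetra planeri, both mapped to the sea lamprey genome and deposited as 1 consensus set for each species.

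Lampreys are jawless vertebrates. The neural crest (NC), a vertebrate cell population, is set apart at the border of the neural plate and later yields pigment cells, peripheral neurons and glia, and much of the head skeleton. To leave the dorsal midline its cells loosen their junctions and become motile. Several of the named loci belong to systems that act in the vertebrate neural tube. R-spondins amplify Wnt signals, retinol dehydrogenases feed retinoic acid synthesis, and Eph receptors and semaphorins guide cells and axons by repulsion. A DNT pool holds neural, NC and adjoining cells, so fewer cells of a type and less RNA per cell cannot be told apart in these values.

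The libraries held between 12172421 and 91015285 counts, a 7.48-fold range, and the T20 libraries held 15677501 and 13690592 counts in replicates 1 and 2. DNT and NC markers were present at T20, with 2184 and 2486 normalised counts of Wnt1 and 280 and 272 of Pax7. NC markers differed between the T20 libraries. Foxd3 had 215 normalised counts in replicate 1 and 642 in replicate 2, and SOX10 had 900 and 2761. Other tissue markers differed too, with summed levels of 39556 and 83621 for epidermis and 260 and 76.3 for endoderm in the same order. The notochord and floor plate sums were close, at 8525 and 8699. None of 13 lists of markers of cell types and cell states held one of the 76 loci, and no locus of these lists with a mean of at least 50 had both T20 libraries below all others. Markers were looked up by gene name in the study's lists of changed or clustered loci. Only the 10 of the 76 loci with a name there could have matched, so the other loci were not checked against markers. The summed level of the neuronal list was slightly lower in both T20 libraries than in all others. It was 7915 to 8238 at T18, 7453 and 7382 at T20 and 7938 to 8012 at T21. Most single loci of the list went the other way. Between T18 and T20, 6 of its 10 loci rose and 2 fell by the edgeR test given below. Between T20 and T21 that test called 0 of them in either direction. The part of the neuronal list in the dip was not tested.

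Of the 76 loci, 10 carried a gene name in the study's lists of changed or clustered loci, and 66 carried none there. Being named is therefore tied to having changed. The names are annotations of the germline genome assembly, and a locus with several names overlaps several annotated genes. The named loci were rspo2, Basp1, CHDC2, PTPRF with Ptprd, Rdh10, Kif26b, Scnn1b, EPHB3 with Epha4 and Ephb3, SEMA3D and RAB23. Loci with several names are called by the first below. One unnamed locus, XLOC_021622, met the rule only because it was at 0 in all T18 and T20 libraries. Counts of size and depth below leave it out where stated.

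The depth of the dip depended on how it was measured, and it describes values on which the loci were chosen. Over the 75 loci with a value at T18, the T20 mean was a median of 30.9% of the mean of T18 and T21. The higher T20 library stood at a median of 54.7% of the lowest other library, with a lowest value of 4.65% and a highest of 66.2%. In 29 of the 75 it was at most 0.5 of the lowest other library. Levels were mostly modest. The mean of T18 and T21 was between 50 and 100 normalised counts at 24 loci, between 100 and 500 at 36 and at or above 500 at 16, with a median of 137 over the 75. The 76 loci lay on 54 scaffolds.

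**Figure D1:**
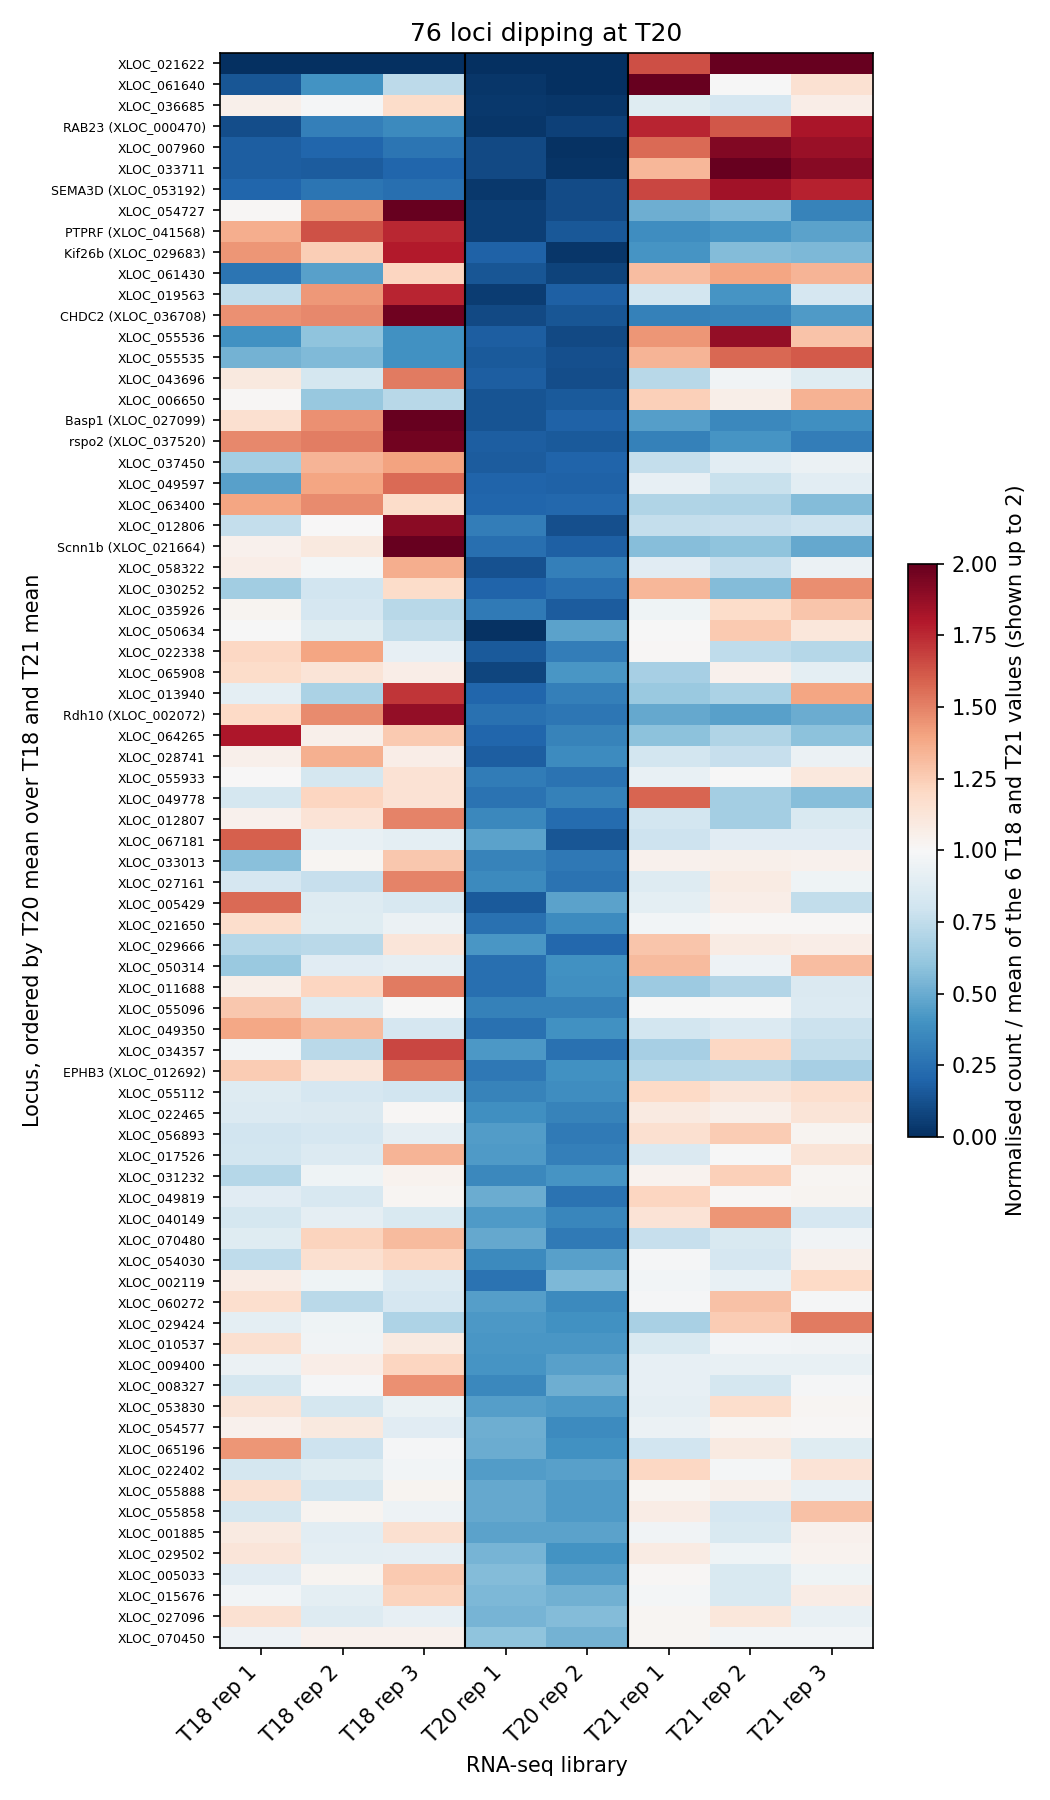
Normalised count of each of the 76 loci (down the page) in each RNA-seq library (across, by stage), divided by the locus's mean over the 6 T18 and T21 libraries and shown up to 2. Both T20 columns are below 1 throughout, since the rule chose the loci so, while the T18 and T21 columns differ from locus to locus, with SEMA3D and RAB23 highest at T21 and rspo2 and Basp1 highest at T18.

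Both T20 libraries carried the dip, but they were not alike. The ratio of the higher to the lower T20 value had a median of 1.397, and at 17 loci it was above 2. Replicate 1 was higher at 39 loci and replicate 2 at 36. The size of the set depends on having both. With T20 replicate 2 as the only T20 library 736 loci met the rule, and with T20 replicate 1 as the only one 277 did. At 10 loci both T20 libraries had fewer than 10 counts, among them the locus at 0. Both T20 libraries lay below all 6 others at 732 of the 14418 loci (5.08%), so the 76 are the far end of a larger group.

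rspo2 encodes R-spondin 2, a secreted protein that enhances Wnt signalling. It had 1491, 1523 and 1977 normalised counts at T18, 181 and 158 at T20 and 329, 416 and 308 at T21. The T20 libraries were close to each other, the stages did not overlap, and the level at T21 stayed far below that of T18. The locus (XLOC_037520, scaf_00040, 2148749 to 2173020, minus strand) holds 1 transcript of 6 exons over 24272 bases.

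Rdh10, the retinol dehydrogenase that starts retinoic acid synthesis in vertebrate embryos, had the same order of stages. Its values were 747, 913 and 1167 at T18, 155 and 173 at T20 and 302, 285 and 313 at T21. Here too no library of one stage reached those of another. The locus (XLOC_002072, scaf_00002, 4903631 to 4945957, minus strand) spans 42327 bases with 5 exons.

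Kif26b encodes an atypical kinesin that in mice acts downstream of non-canonical Wnt signals. It had 466, 405 and 580 normalised counts at T18, 61.3 and 9.31 at T20 and 132, 184 and 178 at T21. The T20 libraries differed 6.58-fold at this locus, with 41 and 5 raw counts, and both lay below every other library. XLOC_029683 (scaf_00029, 11043844 to 11166793, minus strand) covers 122950 bases, and its 16017 exonic bases were the most of any of the 76.

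EPHB3 names a receptor for ephrins, proteins of neighbouring cells whose contact commonly repels. The locus overlaps genes annotated as EPHB3, Epha4 and Ephb3, and its counts pool them. It had 446, 399 and 543 at T18, 100 and 142 at T20 and 255, 257 and 237 at T21. The stages again did not overlap, and the T21 libraries differed little from each other. XLOC_012692 lies on scaf_00010, 9285679 to 9357292, plus strand, with 17 exons.

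PTPRF and Ptprd, receptor tyrosine phosphatases of the LAR type, which act in axons and at synapses, are both annotated under 1 locus, which had the lowest ratio of the higher T20 to the lowest other library among the named loci. XLOC_041568 (scaf_00046, 2482769 to 2509607, minus strand) had 331, 397 and 425 at T18, 14.9 and 37.2 at T20 and 91.4, 99.4 and 114 at T21. The T20 mean was 6.79% of the T18 mean and 25.7% of the T21 mean.

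Basp1 encodes a membrane-bound protein of growth cones. XLOC_027099 (scaf_00026, 9785450 to 9799557, plus strand) had 1359, 1708 and 2574 normalised counts at T18, 164 and 227 at T20 and 521, 412 and 450 at T21. T18 replicate 3 was the highest library at this locus.

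Scnn1b encodes the beta subunit of the epithelial sodium channel. XLOC_021664 (scaf_00019, 12139705 to 12177354, minus strand) had 2091, 2186 and 4405 at T18, 495 and 371 at T20 and 1146, 1187 and 972 at T21. T18 replicate 3 stood far above the other T18 libraries. That library was the highest of the 3 T18 libraries at 44 of the 76 loci, against 19 for T18 replicate 1. The same count was not made over all loci, so it cannot be called particular to the 76.

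CHDC2 (XLOC_036708, scaf_00039, 5596496 to 5618179, plus strand) had 114, 116 and 154 at T18, 7.47 and 11.2 at T20 and 25.3, 26.0 and 33.7 at T21. It was the named locus with the lowest T18 level among those higher at T18 than at T21.

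SEMA3D and RAB23 differed from these 8 in being highest at T21. SEMA3D, a secreted class 3 semaphorin, had 280, 358 and 334 at T18, 43.3 and 142 at T20 and 2237, 2474 and 2381 at T21. The T20 libraries differed more than 2-fold, yet both lay below every T18 library, and T21 was far above both stages. XLOC_053192 (scaf_00082, 22971 to 173988, plus strand) has 7 transcripts and spans 151018 bases.

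RAB23, a small GTPase that restrains Hedgehog signalling in mice, had 12.5, 34.7 and 39.5 at T18, 2.99 and 7.45 at T20 and 191, 176 and 197 at T21. The T18 libraries themselves were widely spread at this low level, and the T20 dip rests on few reads. XLOC_000470 lies on scaf_00001, 9361056 to 9376293, minus strand.

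**Figure D2:**
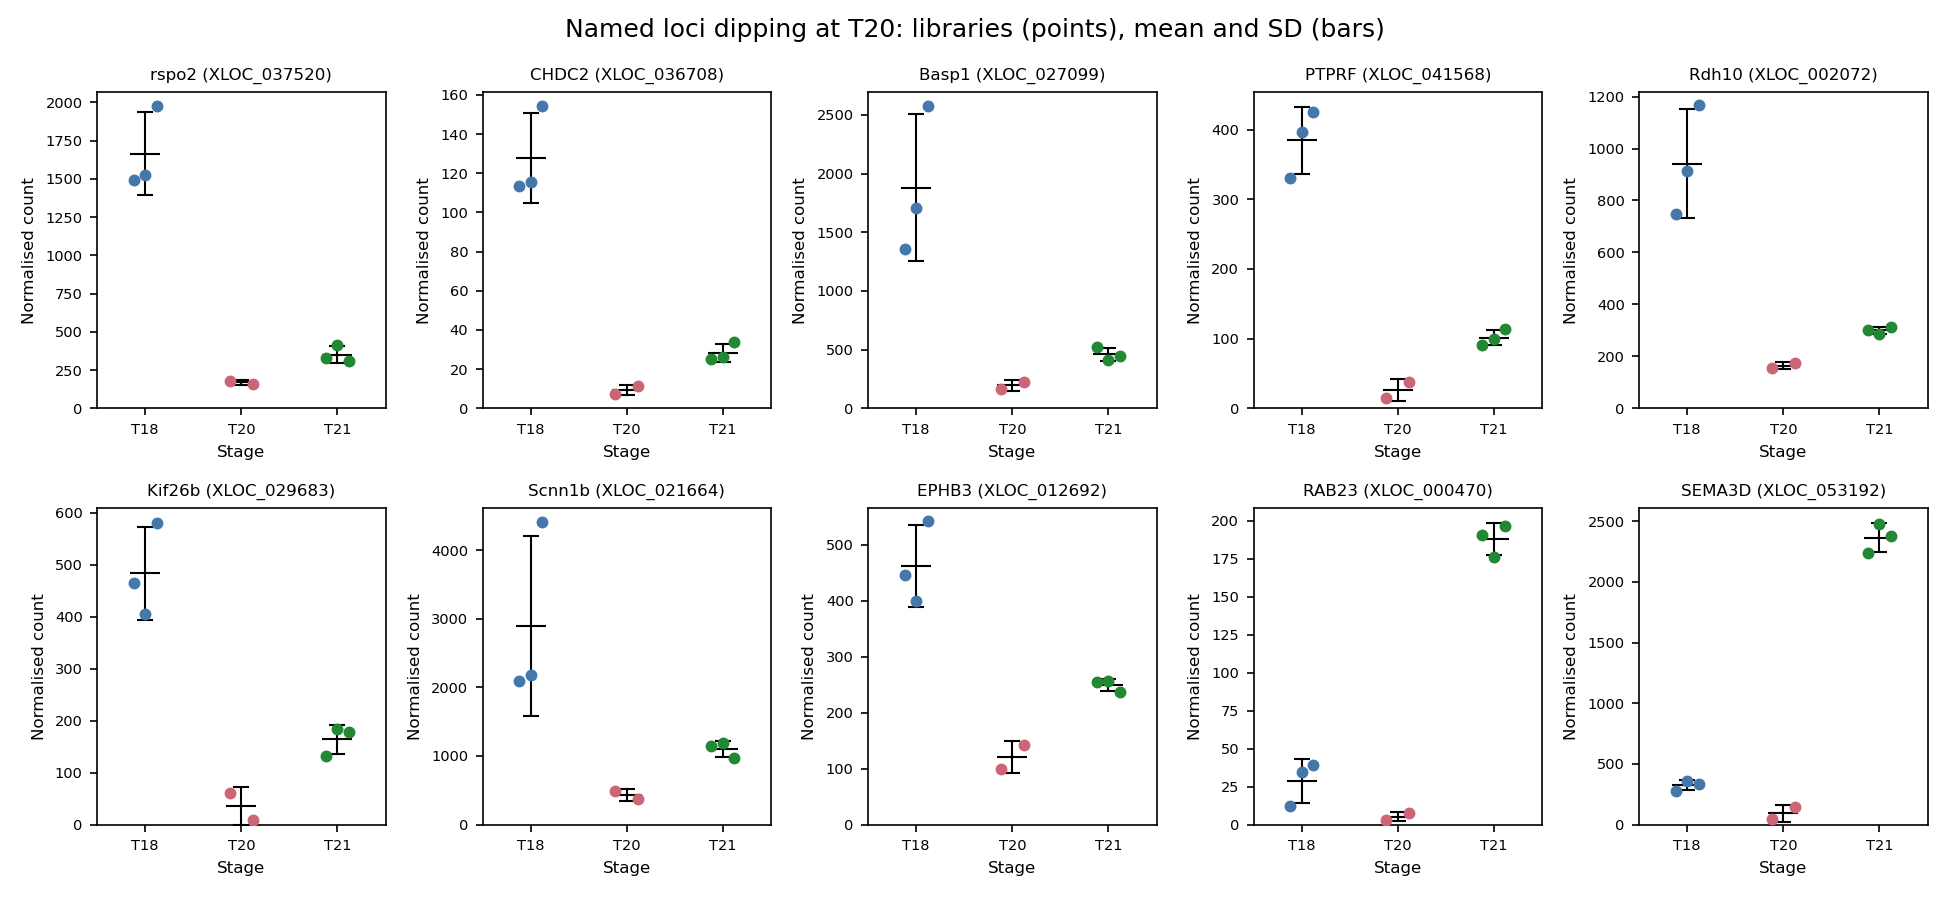
Normalised counts of the 10 named loci by stage, on linear axes from 0 (points, libraries; bars, mean and SD of 3, 2 and 3 libraries). rspo2, CHDC2, Basp1, PTPRF, Rdh10, Kif26b, Scnn1b and EPHB3 are highest at T18, and RAB23 (191, 176 and 197 at T21) and SEMA3D are highest at T21.

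By the higher T20 over the lowest other library, the 10 deepest dips were at loci without a name. By the T20 mean over the mean of T18 and T21, RAB23 at 4.82% and SEMA3D at 6.88% were lower than some of these 10, such as XLOC_043696 at 14.4%. That order rests on their high T21 levels. Against the T18 mean alone, T20 was 18.1% at RAB23 and 28.5% at SEMA3D but 12.6% at XLOC_043696. Against the T21 mean the values were 2.78%, 3.91% and 16.8%. XLOC_036685 (scaf_00039, 1469120 to 1476607, plus strand) had 81.2, 76.8 and 91.7 normalised counts at T18, 2.99 and 1.86 at T20 and 68.1, 64.3 and 82.5 at T21. It had nearly the same level on both sides and almost no reads between, with 3 counts in the T20 libraries against 797 in the other 6. Scaled by size factors this is 2.99% of the other level (exact 95% interval 0.615 to 8.77%, counting error only). The rule chose the locus on these same values, so the interval is a description and no test of the dip.

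XLOC_061640 had 7.49, 20.6 and 37.6 at T18, 1.49 and 0 at T20 and 130, 50.5 and 58.5 at T21. Its single T20 count gives 1.86% of the other level (0.0469 to 10.4%, likewise a description), but its T18 and T21 libraries were widely spread. XLOC_043696, with 18 exon blocks over 127565 bases, had 124, 92.5 and 171 at T18, 19.4 and 13.03 at T20 and 81.7, 109 and 98.8 at T21. Its T18 and T21 libraries overlapped, and both T20 libraries were well below them.

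XLOC_006650 had 151, 93.3 and 108 at T18, 20.9 and 24.2 at T20 and 185, 158 and 201 at T21. It lies on scaf_00005, 19990882 to 20005768, plus strand, and the next locus downstream on that strand is Wnt1, at 129350 bases. Wnt1 did not share the pattern, at 48.7, 19.8 and 30.6 at T18, 2184 and 2486 at T20 and 3718, 3254 and 3606 at T21.

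The others of these 10 were XLOC_037450, XLOC_054727, XLOC_055933, XLOC_055096, XLOC_063400 and XLOC_012806. Among them XLOC_055096, with 19 transcripts, was well counted and even within each stage. It had 458, 314 and 359 at T18, 117 and 115 at T20 and 360, 358 and 311 at T21. XLOC_055933 was similar at a lower level, with 84.9, 69.4 and 96.8 at T18, 25.4 and 22.3 at T20 and 77.8, 84.1 and 92.9 at T21.

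The most abundant of the loci gave the best counted dips. XLOC_009400, with 1143 and 1015 raw counts at T20, had 3936, 4456 and 5067 normalised counts at T18, 1709 and 1890 at T20 and 3839, 3858 and 3866 at T21. The T21 libraries were almost identical and the T20 libraries were well below both other stages. XLOC_022402 had 1540, 1647 and 1830 at T18, 830 and 864 at T20 and 2267, 1834 and 2132 at T21. XLOC_055888 and XLOC_022465 had 731 and 657, and 541 and 469, at T20, and their T18 and T21 libraries lay between 1229 and 1748 and between 1197 and 1577. These shallower dips rest on many more reads than the deepest ones, with at least 252 counts in each T20 library.

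At the limit of the rule, the last loci inside were XLOC_015676, XLOC_027096 and XLOC_005033, the last with 299 and 236 at T20 against a lowest other value of 451. The first outside was XLOC_061843, with 230 and 233 at T20 against a lowest other value of 349, and then XLOC_042550 and XLOC_070318.

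The rule did not set T21 against T18 directly, and that comparison asked where the loci stood after the dip relative to before it. The rule's minimum mean pools both stages, however, so a locus could reach it through 1 stage alone. RAB23, XLOC_007960, XLOC_055536, XLOC_061640 and XLOC_021622 had every T18 library under 50, and CHDC2 every T21 library. XLOC_019563, which was not called below, also had every T21 library under 50, at 48.6, 24.5 and 49.6. Calls at such loci are therefore tied to the rule and are a description. With edgeR (quasi-likelihood test over all 25317 loci tested, Benjamini-Hochberg adjusted p under 0.05), 9 of the 76 loci were higher at T21 than at T18 (11.8%, against 18.9% of all loci) and 13 were lower (17.1%, against 14.7%), so 22 were called in all, beside 33.6% of all loci. The other 54 passed neither way, which does not show that they returned to their T18 level. The median log2 fold change was -0.13 over the 76 loci and -0.03 over all loci. All 76 passed the filter on low counts. The 25317 loci tested include loci below the rule's minimum mean, so the shares beside each other are not of like loci.

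Lower at T21 were the 8 named loci that were highest at T18, together with XLOC_054727, XLOC_063400, XLOC_064265, XLOC_011688 and XLOC_012807. rspo2 fell by 2.28 on the log2 scale (SE 0.15, edgeR adjusted p = 2.1e-07). Rdh10 fell by 1.67 (SE 0.17, edgeR adjusted p = 6.35e-06) and PTPRF by 1.92 (SE 0.25, edgeR adjusted p = 5.04e-05). Basp1 fell by 2.06, CHDC2 by 2.16, Kif26b by 1.56 and EPHB3 by 0.92, with edgeR adjusted p of 8.87e-05, 0.000136, 0.00579 and 0.00135. For each of these 7, and for Scnn1b, every T21 library lay below every T18 library. Separation of these stages was not limited to the named loci, since T18 and T21 libraries did not overlap at 34 of the dipping loci. It was not counted over all loci, and being named is tied to having changed, so it cannot be called particular to these loci.

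Scnn1b fell by 1.43 (SE 0.31, edgeR adjusted p = 0.0106). Without the filter on low counts its adjusted p was 0.0717, and without either T20 library it was 0.0513 and 0.0512, so this call is not firm. XLOC_054727 fell by 1.78 and had 172, 245 and 365 normalised counts at T18, 10.5 and 18.6 at T20 and 87.6, 94.9 and 57.0 at T21. Of the other loci that were lower, 3 lost the call without 1 library. These were XLOC_011688 without T18 replicate 3 or T21 replicates 1 or 2 (edgeR adjusted p = 0.0726, 0.073 and 0.062), XLOC_012807 without T18 replicate 3 or T21 replicate 2 (edgeR adjusted p = 0.076 and 0.0792) and XLOC_064265 without T21 replicates 1 or 3 (edgeR adjusted p = 0.0544 and 0.0565).

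Markers of paraxial mesoderm and muscle also fell, 7 of 11 loci by the same test and 1 the other way. Their summed level was 13919 to 15592 at T18, 5741 and 4152 at T20 and 3259 to 3384 at T21, and none was at 0 throughout a stage. Endoderm markers fell too, 3 of 4 loci with 0 the other way, and NKX2-1 was at 0 in all T21 libraries. Their sums were 272 to 541 at T18, 260 and 76.3 at T20 and 22.95 to 48.96 at T21. Only 2 loci of the cell cycle list were found by name, and 2 of 2 fell. Marker loci, here and below, were found in the study's lists of changed or clustered loci. Their shares are therefore tied to having changed. Over all loci tested, 14.7% were lower and 18.9% higher at T21 than at T18. None of the sums of these marker lists dipped at T20, and the part of the marker lists in the T21 change of the loci was not tested.

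Higher at T21 were SEMA3D (log2 fold change 2.84, SE 0.26, edgeR adjusted p = 3.78e-05), RAB23 (2.61, SE 0.37, edgeR adjusted p = 0.000123) and 7 unnamed loci. XLOC_033711 rose most of those with reads at T18, by 3.26 on the log2 scale (SE 0.32, edgeR adjusted p = 7.08e-06). It had 52.5, 51.2 and 63.0 at T18, 29.9 and 5.59 at T20 and 399, 661 and 573 at T21. XLOC_007960, with 22 exon blocks, rose by 2.97 (SE 0.34) and had 21.2, 25.6 and 33.5 at T18, 11.96 and 1.86 at T20 and 193, 237 and 229 at T21.

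XLOC_055535 and XLOC_055536 rose by 1.62 and 1.71, and XLOC_061640 by 1.71. The call at XLOC_061640 was lost without T18 replicate 1 or 2 or T21 replicate 1 (edgeR adjusted p = 0.0664, 0.0936 and 0.158). XLOC_022402 rose by only 0.29 (SE 0.10, edgeR adjusted p = 0.0431), a call lost under DESeq2 (0.0572) and upper quartile normalisation (0.309), and without T18 replicates 1 or 2 or T21 replicates 1 or 3 (edgeR adjusted p = 0.181, 0.152, 0.177 and 0.137). XLOC_021622, at 0 in all T18 and T20 libraries, had 89.5, 124 and 113 at T21, at least 29.0-fold higher at T21 than at T18 when T18 is set at 3 counts per library. For it T20 was no lower than T18, and it was detected only in the T21 libraries. Epidermal markers rose between the same stages, 8 of 11 loci by the same test and 2 fell, with sums of 120143 to 139649 at T21 and 17853 to 22047 at T18. Of the DNT and NC markers, 15 of 19 rose and 3 fell, with sums of 36909 to 37238 at T21 and 11397 to 11938 at T18. Notochord and floor plate markers summed to 16203 to 17589 at T21 and 3979 to 5461 at T18, although 2 of 6 rose and 4 fell, with FOXA2 at 0 in all T21 libraries. The part of these lists in the changes of the 9 loci was not tested.

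**Figure D3:**
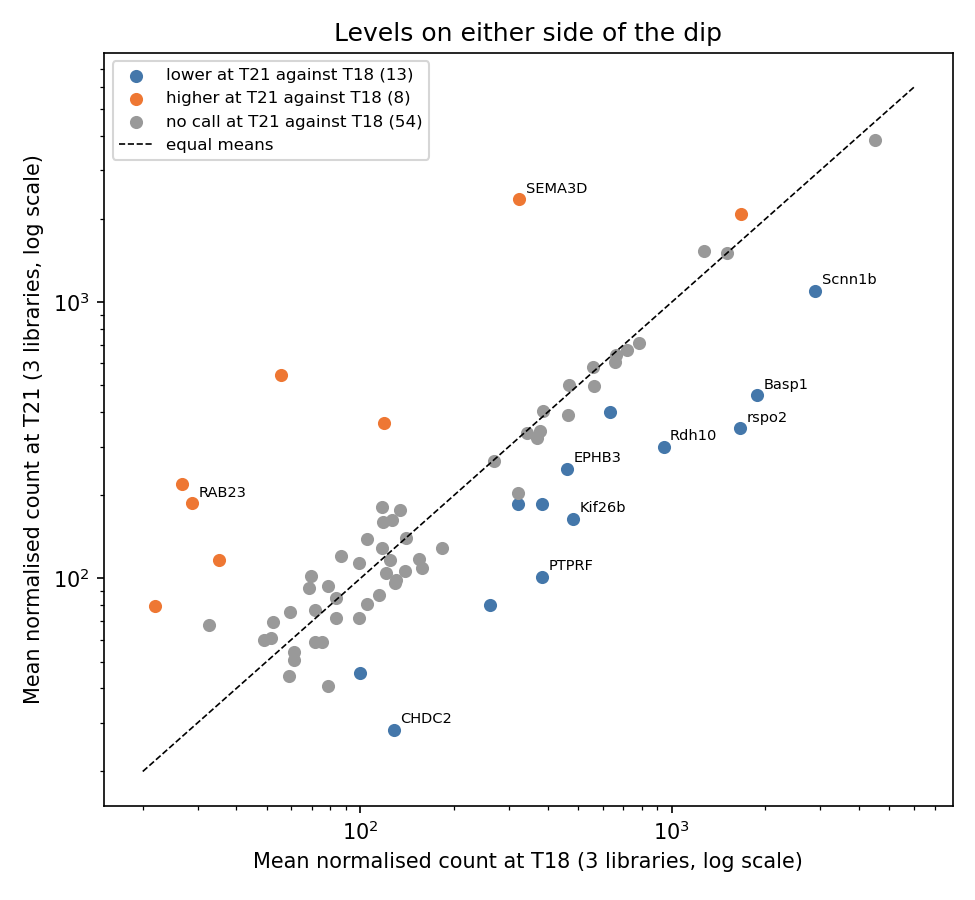
Mean normalised count at T21 (vertical) against T18 (horizontal), both on log scales, for the 75 loci with reads at T18, coloured by the edgeR call. The 54 loci without a call lie on either side of the dashed line of equal means, some farther from it than called loci. The 13 called lower lie below it and the 8 called higher above it, and named loci are labelled.

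Against T20 itself the same test gives values that the rule had already fixed, so they are a description. At T20 against T18, 72 of the 76 were called lower, beside 6.51% of all loci tested (17.3% in either direction). At T21 against T20, 66 were called higher, beside 5.4% (9.8% in either direction and 4.4% lower). Both calls were made at 63 loci, one of them at 12 and neither at 1. These comparisons share the T20 libraries, and nothing is read from them.

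Related genes were set beside the named loci to see whether a gene family moved as a whole. The families were chosen after the values of these loci had been seen. Relatives carry a name for the same reason as the 10 loci, from lists of changed or clustered loci. There were 48 named relatives, and in 5 of them (10.4%) both T20 libraries lay below all others, beside 5.08% of loci with a mean of at least 50. No minimum mean was set for the relatives, so these shares are not of like loci. The locus epha4-b, given below, was not counted among the 48. By the edgeR test, 12 of the 48 were lower and 5 higher at T20 than at T18, beside 6.51% and 10.8% of all loci tested. Relatives with few counts, such as Lgr6 and LGR4, were not tested. Whether the relatives differ from the 10 loci was not tested.

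The other R-spondins showed no such dip. RSPO3 had 135, 247 and 324 at T18, 353 and 378 at T20 and 446, 304 and 446 at T21. The locus that overlaps both Rspo4 and PC6, whose counts are pooled, had 4106, 4694 and 6006 at T18, 4613 and 4727 at T20 and 5205, 4977 and 4533 at T21. Their T20 libraries lay within or above the range of the T18 libraries, whereas those of rspo2 lay below all others.

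In the retinoic acid group, none of the 9 relatives of Rdh10 had both T20 libraries below all others. CYP26A1, which breaks retinoic acid down, fell in steps, with 582, 975.4 and 1259 at T18, 80.7 and 110 at T20 and 13.6, 30.6 and 15.2 at T21. CYP26C1, of the same enzyme family, rose in steps, with 232, 318 and 427 at T18, 610 and 683 at T20 and 4164, 5091 and 4505 at T21. crabp2, a retinoic acid carrier, rose at both steps too, with 503 to 632 at T18, 1522 and 1350 at T20 and 4400 to 6145 at T21. Expression of this group thus changed at many loci, but with the dip at Rdh10 alone among the 10 loci examined.

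Of the 9 relatives of EPHB3, 3 had both T20 libraries below all others, to a smaller extent. The locus named Epha7 and epha3 had 155, 148 and 158 at T18, 59.8 and 55.9 at T20 and 72.0, 101 and 85.1 at T21. The others were an EFNA3 locus, with 1133 and 1106 at T20 against a lowest other value of 1148, and an EFNB1 locus, with 217 and 164 against 228. The receptor EPHB2 had 2009 to 2198 at T18, 1124 and 1139 at T20 and 968 to 1093 at T21, where it was no higher than at T20. All 3 of the Eph receptor loci among these 9 were called lower at T20 than at T18, and the rest of the 9 were ephrins. The locus epha4-b (XLOC_012693), the next downstream of EPHB3 on its strand at 240248 bases, was not among the 9 and did not dip. It had 699, 581 and 556 at T18, 1314 and 1314 at T20 and 1391, 1496 and 1348 at T21.

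SEMA3D was also the name of 3 other loci, which did not dip. XLOC_038917 had 21.2, 14.9 and 17.0 at T18, 32.9 and 110 at T20 and 230, 285 and 281 at T21. XLOC_050630 had 588, 625 and 575 at T18, 610 and 1000 at T20 and 1127, 1137 and 1093 at T21. All 4 loci of that name were called higher at T21 than at T18, and XLOC_053192 alone among them was lower at T20 than at T18. Among plexins, receptors for semaphorins, plxna4 had both T20 libraries below all others, at 5960 and 6288 against a lowest other value of 6533.

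The other subunits of the epithelial sodium channel differed from Scnn1b. The locus scnn1g-b, 11868 bases upstream of Scnn1b on the same strand, had 523, 538 and 920 at T18, 637 and 519 at T20 and 759, 909 and 816 at T21. Scnn1a had 196, 175 and 292 at T18, 263 and 123 at T20 and 317, 242 and 312 at T21. T18 replicate 3 was the highest T18 library for all 3 subunits.

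Around PTPRF, 2 more loci with names of the same family flank it on the same strand. XLOC_041567, named Ptprd and 660 bases downstream, had 99.9, 80.1 and 90.3 at T18, 8.97 and 7.45 at T20 and 5.84, 10.7 and 18.5 at T21, so it was lower at T21 than at T18 by the same test and its T20 and T21 libraries overlapped. XLOC_041569, named PTPRF and 10449 bases upstream, had 13.7 to 27.0 at T18, 0 and 5.59 at T20 and 0 to 4.59 at T21. Of the 7 relatives of this family, 1 had both T20 libraries below all others. XLOC_041566, named Ptprd, had 794, 666 and 915 at T18, 514 and 495 at T20 and 556, 548 and 627 at T21. Whether these loci are parts of 1 gene cannot be told from these files. The second Basp1 locus, XLOC_034266, had 491, 396 and 520 at T18, 202 and 104 at T20 and 81.7, 78.0 and 54.8 at T21.

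Most neighbours on the genome did not share the dip, but low T20 values were more frequent among them than over all loci. There were 62 pairings of a locus with a nearest neighbour on the same strand that had a mean of at least 50. In none did the neighbour meet the rule. In 9 (14.5%, against 5.08% of all loci with that mean) it had both T20 libraries below all others. PCDH18 and Med27 were each the neighbour of 2 loci, so pairings are not all distinct loci and the shares are not of like units. Of the 5 pairings within 1 kb, 2 had such a neighbour. XLOC_029503, 931 bases downstream of XLOC_029502, had 239, 202 and 258 at T18, 160 and 127 at T20 and 307, 254 and 301 at T21. XLOC_005034 lies 502 bases downstream of XLOC_005033. Neighbours here and below were picked out after their values were seen.

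Overlap within a strand occurred in 2 pairs of the 76 loci. XLOC_012807 lies inside the span of XLOC_012806, and XLOC_055536 inside that of XLOC_055535, so each pair is less than 2 independent cases. Of 14 overlapping loci of the same strand with a mean of at least 50, 5 had both T20 libraries below all others, these pairs included. Outside the 76 was XLOC_058323, which overlaps XLOC_058322 and had 50.8 and 197 at T20 against a lowest other value of 201. XLOC_012806 had 201, 264 and 500 at T18, 80.7 and 31.7 at T20 and 200, 202 and 209 at T21, and XLOC_012807 had 541, 588 and 774 at T18, 185 and 119 at T20 and 420, 340 and 440 at T21. T20 replicate 2 was the lower and T18 replicate 3 the highest at both. XLOC_055535 had 127, 135 and 95.7 at T18, 38.9 and 29.8 at T20 and 325, 382 and 392 at T21.

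Loci of the opposite strand overlapped 36 of the 76, with overlapping exons at 25. Counting kept the strands apart. Of 8 such opposite loci with a mean of at least 50, none had both T20 libraries below all others. XLOC_033711 shares 7363 exonic bases with the hox-delta3 locus of the other strand, which had 43.7, 51.2 and 54.6 at T18, 62.8 and 50.3 at T20 and 117, 104 and 140 at T21. Hox genes pattern the body axis, and this one did not dip while the transcript opposite it did. XLOC_022338 likewise shares 9813 exonic bases with NCOA5, which had 156 to 214 at T18, 271 and 255 at T20 and 210 to 327 at T21.

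The loci spanned more of the genome than the median locus, while their exons were similar in number and length. Loci are not replicates, so structure and peaks are described without a test. The median span was 27337 bases, against 15195.5 for all 14418 loci with a mean of at least 50, and 24 of the 76 (31.6%, against 15.9%) spanned more than 50 kb. Median exonic length was 4832 against 4389 bases, median exon blocks 6 against 7 and median transcripts 3 against 3. Spliced transcripts were assembled at 69 of the 76 (90.8%, against 90.8%). The strand was unknown at 4, and the other 72 divided evenly, with 36 on each strand. The longest were XLOC_001885 at 241338 bases, XLOC_012806 at 231026 and XLOC_055535 at 229481.

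Open chromatin was found within 50 kb of all 76 loci in both species, which holds for nearly every locus (99.9% for sea lamprey and 99.6% for brook lamprey peaks). Inside the span, 70 loci held a sea lamprey peak (92.1%, against 91.5% of all loci with a mean of at least 50) and 69 a brook lamprey peak (90.8%, against 92.7%). Both species had one inside at 67 loci and neither at 4. The 9 loci without one in at least 1 species were short, spanning at most 4150 bases.

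Peak numbers followed the span. The median number inside was 5 sea lamprey peaks, against 3 for all such loci, and 8 brook lamprey peaks, against 5. Per 10 kb of span and flanks the medians were 2.05 against 2.11 and 3.07 against 3.07. Within 50 kb the medians were 28 against 24 and 38 against 36. At 14 loci that window ran past the start of the scaffold or past the last locus or peak on it, among them SEMA3D, with 39 sea and 72 brook lamprey peaks in what remained. Scaffold lengths were not used, so the last locus or peak stood for the end, also in the values per 10 kb. Of 707 sea lamprey peaks inside the 76 loci, 309 (43.7%, against 40.7%) overlapped a brook lamprey peak by at least 1 base. Brook lamprey reads were mapped to the genome of the other species, and peak numbers were not compared between species.

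**Figure D4:**
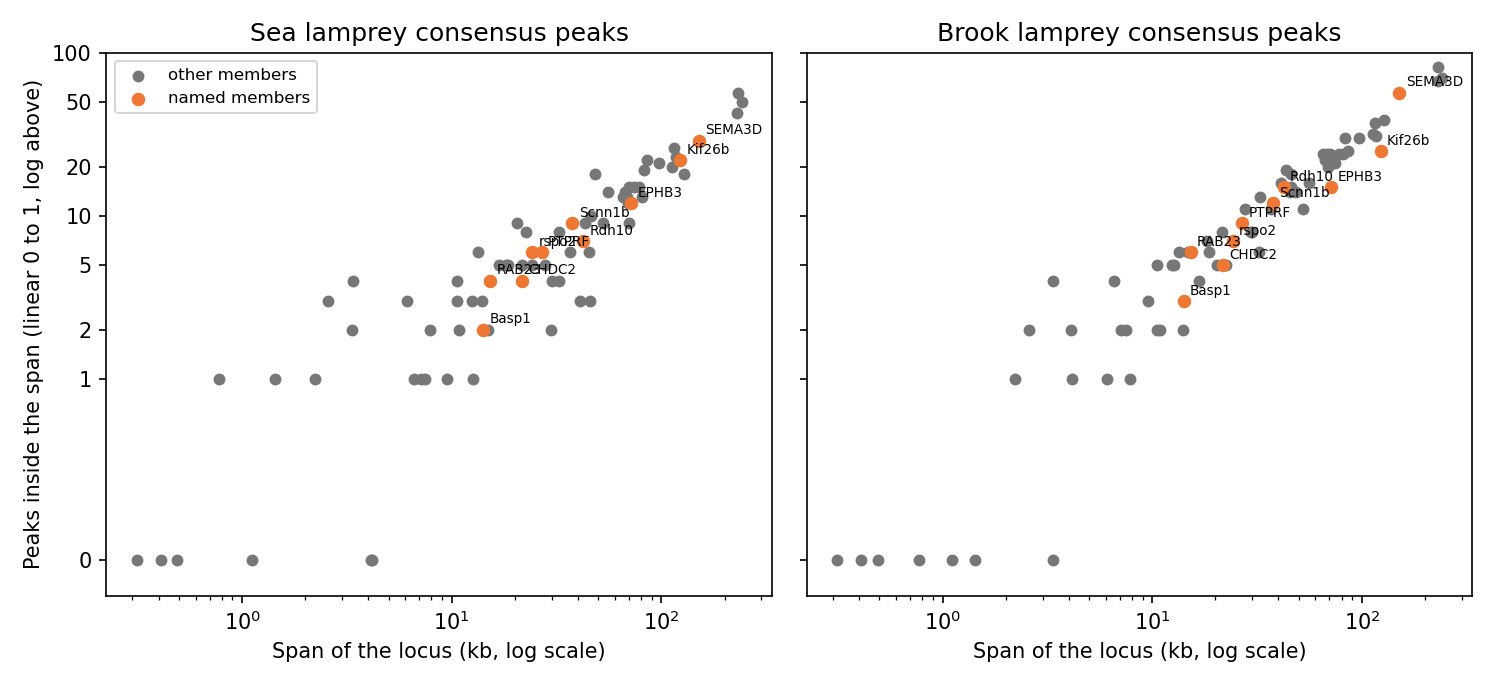
Number of ATAC-seq consensus peaks inside each of the 76 loci against its span in kb (log scale) for sea lamprey (left) and brook lamprey (right), with the named loci in orange. Peaks increase with span in both species, up to 57 sea and 82 brook lamprey peaks in XLOC_012806, which spans 231026 bases.

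A peak at the start was less frequent than over all loci, more so for the sea lamprey. Of the 72 with a strand, 41 (56.9%, against 75.6% of all stranded loci with a mean of at least 50) had a sea lamprey peak within 1 kb of the first base, and 66.7% against 86.5% had one within 2 kb. For brook lamprey peaks the shares were closer, with 41 of 72 (56.9%, against 62.2%) within 1 kb and 80.6% against 82.0% within 2 kb. The first base is that of the assembled transcript, since start sites themselves were not measured.

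The named loci had peaks as follows. Of the 10, 6 had a sea lamprey and 7 a brook lamprey peak within 1 kb of the start, and 5 had both, namely rspo2, Basp1, Rdh10, PTPRF and EPHB3. SEMA3D and CHDC2 had neither. rspo2 held 6 sea and 7 brook lamprey peaks inside and 17 and 29 within 50 kb. Rdh10 held 7 and 15 inside and 29 and 45 within 50 kb, and SEMA3D 29 and 57 inside. In PTPRF all 6 of the sea lamprey peaks inside overlapped brook lamprey peaks, whereas in Kif26b 6 of 22 did. The consensus sets pool stages, so they cannot say whether any of these peaks was less open at T20.

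**Figure D5:**
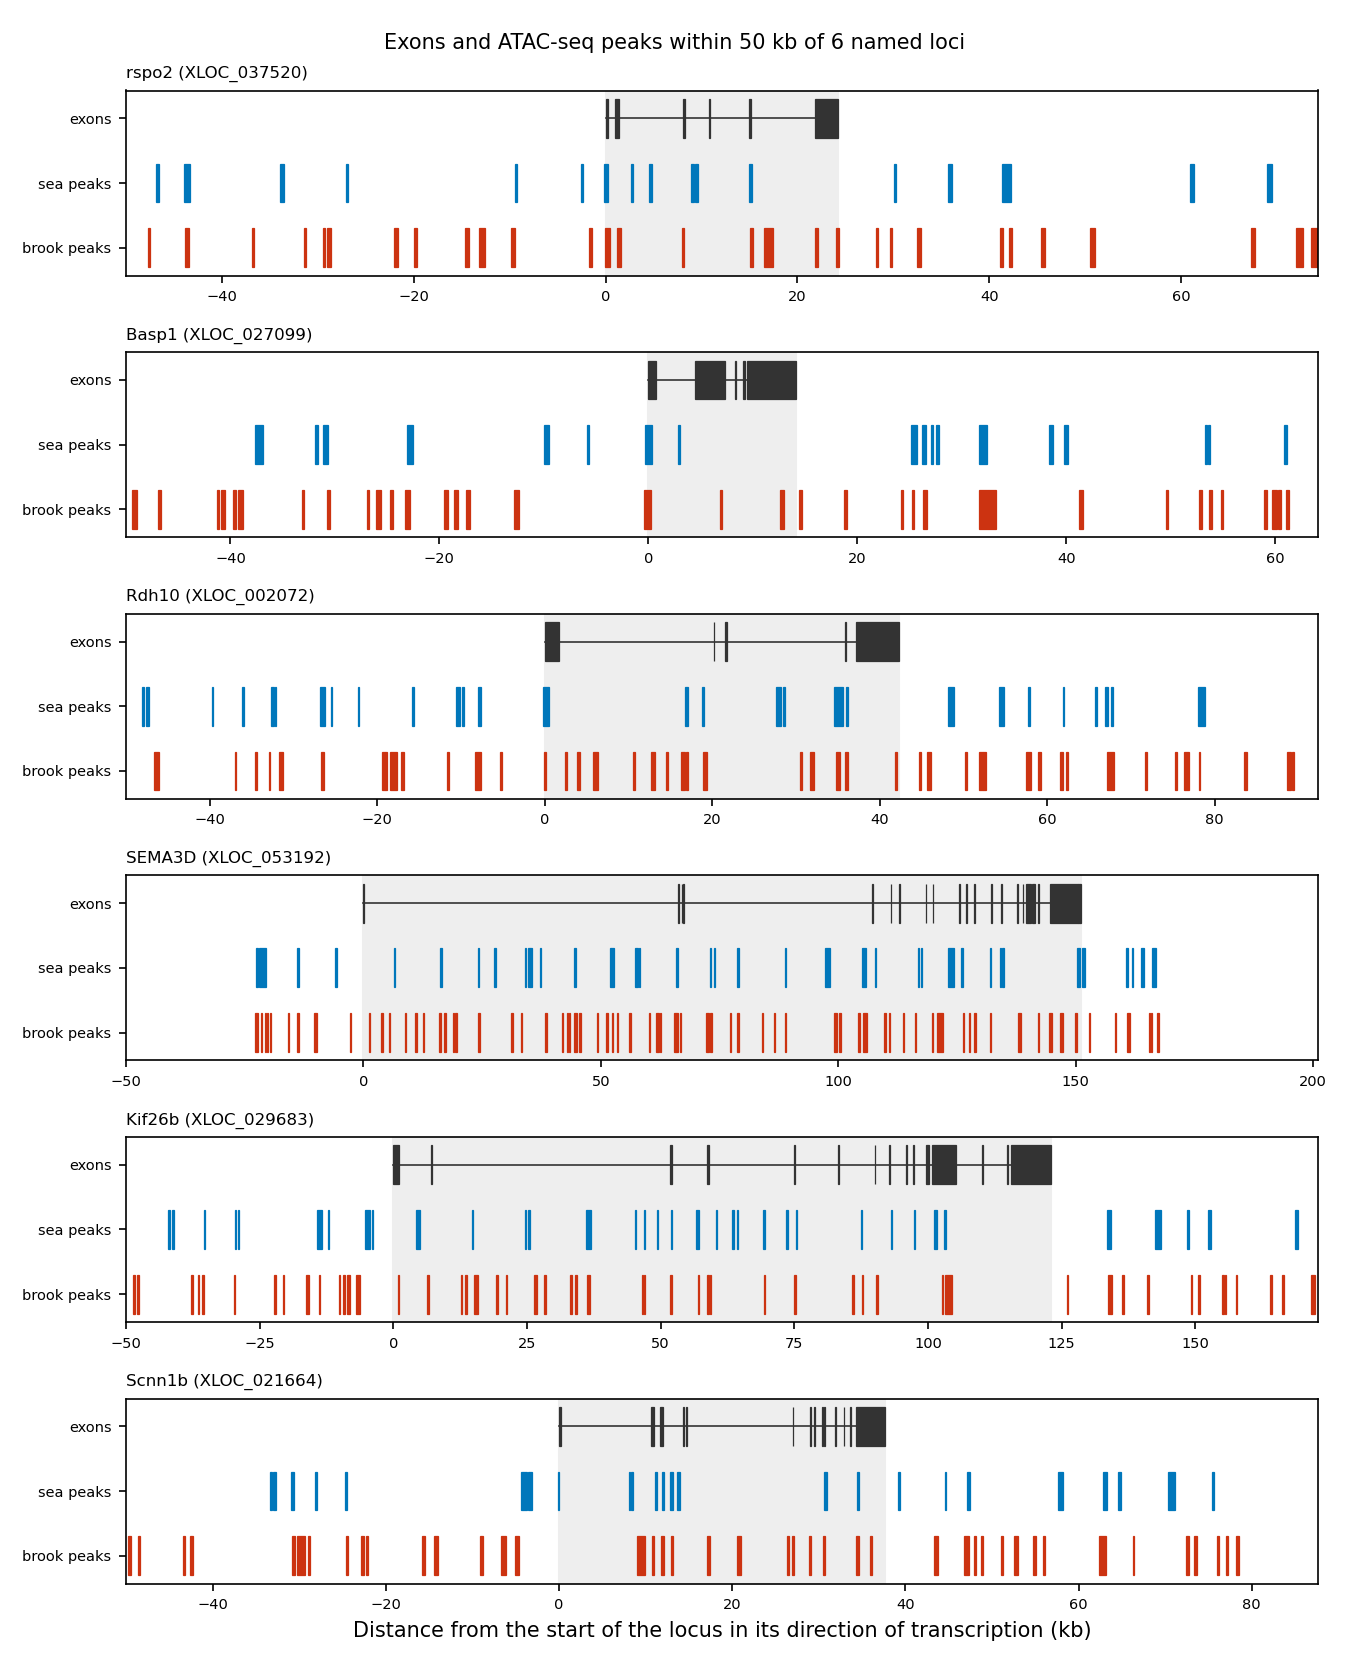
Exons (black), sea lamprey peaks (blue) and brook lamprey peaks (red) of rspo2, Basp1, Rdh10, SEMA3D, Kif26b and Scnn1b, by distance in kb from the start of the locus in its direction of transcription, with 50 kb on either side and the span shaded. Peaks of both species lie inside and outside every locus, rspo2, Basp1 and Rdh10 have one of each species at the start, and the scaffold begins within the upstream flank of SEMA3D.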

How the data were processed

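The authors mapped DNT reads with STAR 2.4.2 to the sea lamprey germline assembly, assembled transcripts with Cufflinks and counted fragments per strand with featureCounts 1.4.6-p4, keeping multimapped reads, so similar copies can share counts. The deposited count table gives raw counts, and the deposited normalised values are a signal, counts divided by DESeq2 1.8.2 size factors (the ratio was constant in every library). ATAC-seq reads were mapped with Bowtie2, and peaks called by the authors with MACS2 were deposited as positions pooled over stages and replicates. No column belonged to other samples (0).

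Counts were fitted with edgeR 4.0.16 (TMM, filterByExpr, stage as the only term, all 8 libraries, adjusted p under 0.05), checked on simulated data, with DESeq2 1.42.0 as an alternative. The table header holds 1 field more than its lines, so counts were read by position. Members and lists were chosen with earlier results of these data known. Named were all loci with a name, the 10 deepest, the 5 most abundant, those nearest the limit, up to 5 per direction at T21 against T18, and neighbouring pairs. Names came from the study's supplementary lists, in part shortened. Sequences were not used here. Alternatives comprised other limits, normalisations, filters, stages fitted alone, a replicate block and leaving out each library.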

Additional observations from a re-analysis of the deposited data

How the results depend on the processing

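The number of loci was 30 with a limit of 50% of the lowest other library, 115 with 75%, 175 with a minimum mean of 20, and 75 to 80 under other normalisations, 68 of the 76 being kept under all 3. Leaving out 1 library gave 83 to 736, with 736 without T20 replicate 1 and 277 without T20 replicate 2, since the rule then asks less. Loci called at T20 against T18 numbered 4391, and 2821 with the compared stages alone. At T21 against T20 they numbered 2481, and 1255 to 3978 with 1 library left out (3978 without T20 replicate 1, and 1255, 1331 and 1344 without T21 replicates 1, 2 and 3). Upper quartile normalisation turned the split at T21 against T18 to 4051 higher and 5258 lower, at T20 against T18 to 2279 and 2571 and at T21 against T20 to 1295 and 1478, and moved the median log2 fold change over all loci to -0.18 at T21 against T18. Of the 76 loci, 8 were then higher and 14 lower at T21. Leaving out 1 library gave 18 to 26 calls among them. None of the log2 fold changes of the 22 loci called at T21 against T18 turned direction under these alternatives. Replicate numbers did not pair the libraries (same-number correlations of deviations -0.037 to 0.080). With a replicate block, 8157, 3541 and 1709 loci were called at T21 against T18, T20 against T18 and T21 against T20, and 8 of the 76 were higher and 13 lower at T21, the call at XLOC_061640 being lost (edgeR adjusted p = 0.0515). The share of starts with a brook lamprey peak was 80.6% with a window of 2 kb, and median length was 4484 bases for the longest transcript. Causes were not tested. T20 has 2 libraries, and 10 loci had under 10 counts in both.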
